A study of Mus musculus with 24 samples.

Results

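The 10 genes of the β-catenin branch of Wnt signalling were followed in mouse embryonic stem cells (mESCs) from which a MEK or a GSK3 inhibitor was removed. They were the 4 genes of the TCF/LEF factors (Tcf7, Tcf7l1, Tcf7l2 and Lef1), the β-catenin gene Ctnnb1, and 5 genes of the destruction complex and its kinases (Gsk3a, Gsk3b, Apc, Axin1 and Csnk1a1). They were picked by symbol, with no threshold on a measured value, though with earlier results of these data known. All 10 were found in both count tables, among 35022 named genes in the table of PD03 removal and 48709 in that of CHIRON removal. Wild-type E14 mESCs (strain label 129m wt) were grown on fibronectin-coated StemBond hydrogels, polyacrylamide gels that were either soft or stiff, for 12 h in 2i+LIF. This medium held the cytokine LIF, 1 µM PD03 (a MEK inhibitor that blocks ERK signalling) and 3 µM CHIRON (a GSK3 inhibitor that keeps β-catenin from being degraded). Then either PD03 was removed, which left the cells in CHIRON+LIF, or CHIRON was removed, which left them in PD03+LIF, and total RNA was sequenced before removal (0 h, in 2i+LIF), then 2 h and 12 h after it. Each removal had 6 groups of substrate and time with 2 libraries each, 24 in all, from 1 cell line. Nothing in the labels said whether replicates came from separate cultures, so that p-values measured only the spread between these libraries. No group stayed in 2i+LIF for the hours after removal. A change from 0 h after a removal therefore cannot be told apart from a change with time in culture.

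Wnt signalling acts through the level of β-catenin. Without a signal, a destruction complex built on the scaffolds Axin and Apc holds β-catenin while the kinases casein kinase 1α and GSK3 phosphorylate it, which marks it for degradation. When the complex is blocked, by a Wnt ligand or by a GSK3 inhibitor, β-catenin accumulates, enters the nucleus and binds TCF/LEF factors on DNA. In mESCs Tcf7l1 is known mainly as a repressor of pluripotency genes, whereas Tcf7 and Lef1 are known mainly as activating partners of β-catenin, and Lef1, Tcf7 and Axin2 are themselves known targets of the pathway. RNA counts report none of the protein levels or phosphorylation on which this pathway runs.

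The genes lie on 9 chromosomes in the GENCODE annotation of GRCm38, the build of the deposited counts, and all are protein-coding. Among the factors, Tcf7 (ENSMUSG00000000782) lies at chr11:52252371-52283014 on the minus strand and Tcf7l1 (ENSMUSG00000055799) at chr6:72626378-72789254 on the minus strand. Tcf7l2 (ENSMUSG00000024985) lies at chr19:55741820-55933654 and Lef1 (ENSMUSG00000027985) at chr3:131110471-131224356, both on the plus strand. Ctnnb1 (ENSMUSG00000006932) lies at chr9:120929216-120960507 on the plus strand. Of the complex, Gsk3a (ENSMUSG00000057177) lies at chr7:25228258-25237851 on the minus strand, and Gsk3b (ENSMUSG00000022812) at chr16:38089001-38246084, Axin1 (ENSMUSG00000024182) at chr17:26138688-26195811, Apc (ENSMUSG00000005871) at chr18:34220924-34322552 and Csnk1a1 (ENSMUSG00000024576) at chr18:61555274-61590061 on the plus strand. Whether counting used strand was not given in the sources used here, so reads of overlapping genes cannot be told apart: an antisense gene covers 28.3% of the exon length of Gsk3a, Ulk4 covers 14.6% of that of Ctnnb1 and other antisense genes cover 13.8% of that of Lef1 and 4.56% of that of Tcf7l1. The antisense gene at Gsk3a had between 61 and 152 counts a library, against at least 1018 for Gsk3a itself, and the one at Lef1 had between 0 and 6.

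Total counts were between 16222196 and 26442153 in the 12 libraries of PD03 removal and between 19393787 and 31111260 in the 11 libraries kept of CHIRON removal. One stiff library at 2 h of CHIRON removal, with 171333 counts, was left out at the start. The stiff 2 h group of that removal is therefore 1 library throughout. It is assumed to vary like the other groups in any error or p given for it. All 6 mESC markers were above 1 CPM (counts scaled to a common library total, here without further normalisation) in every library. Their sums were 3651 to 3749 CPM at 0 h and 3379 to 3481 CPM at 12 h of PD03 removal. For CHIRON removal these sums were 3428 to 3507 CPM and 4088 to 4285 CPM. In contrast, 4 or more of the 6 fibroblast markers were at or below 1 CPM in every library. Summed primitive endoderm markers were 2.68 to 2.99 CPM at 0 h of PD03 removal and 3.97 to 5.33 CPM at 0 h of CHIRON removal. Summed trophoblast markers were 56.35 to 58.1 CPM at 0 h and 56.4 to 62.15 CPM at 12 h of PD03 removal. For CHIRON removal they were 64.4 to 67.1 CPM and 64.9 to 76.3 CPM, with Elf5 and Hand1 at or below 1 CPM in both. Summed mesoderm markers, of which 3 of 6 stayed at or below 1 CPM after PD03 removal, went from 17.9 to 20.2 CPM at 0 h up to 38.8 to 46.5 CPM at 12 h of PD03 removal. For CHIRON removal they went from 19.0 to 22.6 CPM down to 14.5 to 16.8 CPM. Summed neuroectoderm markers went from 57.0 to 66.6 CPM at 0 h up to 103.7 to 113 CPM at 12 h of CHIRON removal. For PD03 removal they went from 75.5 to 82.9 CPM down to 61.2 to 66.3 CPM, with Pax3 and Neurog1 at or below 1 CPM in both. Their part in the results below was not tested, and in these bulk samples fewer cells that express a gene and less RNA per cell cannot be told apart.

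The 2 tables did not give the same levels for cells labelled alike. Before removal, mean log2 CPM was higher in the table of CHIRON removal by 4.53 for Tcf7l1 (23.1-fold), 3.31 for Tcf7l2 and 2.61 for Tcf7, and lower by 1.08 for Lef1 and 1.69 for Ctnnb1 (CHIRON table minus PD03 table -1.08 and -1.69). Over 13175 genes this difference had an SD of 1.00, whereas the mean SD between 0 h libraries of 1 table was 0.116 in the first and 0.144 in the second. The tables come from separate removals whose labels carry different sequencing codes, which cannot be told apart from other differences between them. All levels below are therefore compared within a table, and the 2 removals only through their changes from 0 h.

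Per kilobase of exon, the normalised level of Ctnnb1 at 0 h of PD03 removal was 254 ± 4.75 CPM per kb (mean ± SD, n = 4 libraries, both substrates), the highest of the 10 genes. Csnk1a1 followed at 59.6 ± 1.46, then Axin1 at 28.4 ± 1.05, Gsk3a at 26.3 ± 0.813, Apc at 14.6 ± 0.479 and Gsk3b at 12.7 ± 0.334 CPM per kb. The 4 factors were lowest, with Tcf7 at 8.47 ± 0.326, Tcf7l1 at 5.78 ± 0.564, Lef1 at 1.76 ± 0.203 and Tcf7l2 at 0.554 ± 0.0276 CPM per kb. No neighbours in this order overlapped. In the table of CHIRON removal the order was Tcf7l1 (131 ± 11.2 CPM per kb), Ctnnb1 (75.0 ± 1.63), Gsk3a (64.7 ± 3.89), Tcf7 (50.5 ± 3.19), Csnk1a1 (37.5 ± 1.09), Gsk3b (26.2 ± 1.41), Apc (22.3 ± 2.92), Axin1 (15.8 ± 1.07), Tcf7l2 (5.89 ± 0.451) and Lef1 (0.759 ± 0.113, n = 4 each). Only Gsk3b and Apc overlapped there. Exon length here is that of all annotated exons of a gene together (2625 bases for Tcf7, 3924 for Tcf7l1, 8775 for Tcf7l2 and 8788 for Lef1). It is not the length of the transcripts expressed, so the order and the shares below depend on this choice.

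Lef1 is shown with its start sites because it changed most of the 10 genes, and its start sites differ in TCF/LEF motifs. The promoter table of RefSeq (GRCm38.p6), with 250 bases before and 50 after each start, held 13 windows for 7 of the 10 genes. Apc, Axin1 and Csnk1a1 had no entry. The letters CTTTGA and CTTTGT, cores of the TCF/LEF motif, were searched on both strands, and 5 of the 13 windows (38.5%) held either, against 31.2% of all 32851 windows, which for CTTTGA alone was 16% and for CTTTGT alone 18.7%. A match is only a run of letters, and windows of 1 gene can overlap (that of Tcf7l1 lies largely within its annotated exons). The 250 bases before the first start of Lef1, chr3:131110047-131110296 on the plus strand, held neither motif, whereas those before an internal start within the gene, chr3:131156044-131156293 on the plus strand, held 3 matches, in capitals, all read on the opposite strand and at -180, -146 and -120 from the start:
Lef1, first start: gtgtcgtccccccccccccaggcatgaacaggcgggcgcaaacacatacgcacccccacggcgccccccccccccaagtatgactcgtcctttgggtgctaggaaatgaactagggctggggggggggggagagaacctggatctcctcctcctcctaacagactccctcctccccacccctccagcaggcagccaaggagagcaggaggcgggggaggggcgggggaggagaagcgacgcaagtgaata
Lef1, internal start: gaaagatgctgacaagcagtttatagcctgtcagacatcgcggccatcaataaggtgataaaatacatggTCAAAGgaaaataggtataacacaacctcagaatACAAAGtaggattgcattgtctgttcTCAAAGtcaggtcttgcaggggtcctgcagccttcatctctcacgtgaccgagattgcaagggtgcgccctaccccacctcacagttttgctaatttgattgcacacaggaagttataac
The other matches are shown as 30-base windows on the strand of the gene, with the motif in capitals, to set them beside Lef1. They lie at chr6:72789056-72789085 (Tcf7l1, at -28), chr19:55895295-55895324 (Tcf7l2, internal start, at -14), chr7:25237991-25238020 (Gsk3a, at -157) and chr16:38088912-38088941 (Gsk3b, at -77):
Tcf7l1: gccctgtcaaaaCTTTGTcgccgcagcggc
Tcf7l2: caaaatatcaggCTTTGTtcttttgattga
Gsk3a: tgactgtgttttTCAAAGtgcttccaagtt
Gsk3b: cttctccccgccTCAAAGagggaggggagg
No match was found in the remaining windows of Lef1, in those of Tcf7 and Ctnnb1, or at the first start of Tcf7l2. Whether these matches bear on any change in level was not tested.

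By 12 h of CHIRON removal all 4 TCF/LEF genes had changed, with Lef1 and Tcf7 lower and Tcf7l1 and Tcf7l2 higher on both substrates. None of the other 6 genes passed the test. In all, 2 of the 10 genes rose and 2 fell on soft substrates, where 17.8% of 14615 tested genes passed (9.18% higher and 8.63% lower), and 2 rose and 2 fell on stiff, where 16.8% passed (8.46% higher and 8.33% lower) (edgeR quasi-likelihood test, Benjamini-Hochberg adjusted p under 0.05 over all genes). The median log2 fold change of the 10 genes was 0.04 on soft and 0.02 on stiff, against -0.01 over all tested genes on each. When the discarded library was added to the model, Tcf7, Tcf7l1 and Tcf7l2 no longer passed on soft (adjusted p = 0.288, 1 and 0.191) and none of the 4 passed on stiff (0.351 for Tcf7, 1 for Tcf7l1, 0.144 for Tcf7l2 and 0.105 for Lef1), while their log2 fold changes, -1.16, 0.48 and 0.70 on soft and -1.08, 0.57, 0.76 and -1.41 on stiff, hardly moved. Adding it lowered the number of genes called on soft from 2603 to 457.

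Lef1, the factor named after its role in lymphocytes, fell furthest. On soft substrates it had 7.28 and 6.90 CPM at 0 h (148 and 159 counts), 7.80 and 6.38 CPM at 2 h, and 1.46 and 1.47 CPM at 12 h (39 and 23 counts). On stiff substrates it had 5.21 and 7.28 CPM at 0 h (96 and 134 counts), 6.16 CPM in the 1 library at 2 h, and 1.85 and 2.82 CPM at 12 h (36 and 53 counts). All 12 h libraries lay below all libraries of 0 h and 2 h. With 2 libraries a group such a gap is common: at 12 h of CHIRON removal 28.3% of all tested genes lay wholly above their 0 h libraries and 30% wholly below on soft substrates, and 27.6% and 28.4% on stiff. The log2 fold change at 12 h was -2.27 ± 0.26 (SE, 0.208-fold, edgeR adjusted p = 6.46e-06) on soft and -1.42 ± 0.25 (0.374-fold, adjusted p = 0.000564) on stiff substrates.

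Tcf7, which encodes TCF1, also fell on both substrates. It had 138 and 139 CPM at 0 h on soft substrates and 66.9 and 56.5 CPM at 12 h. On stiff substrates it had 121 and 133 CPM at 0 h and 56.4 and 62.9 CPM at 12 h. At 2 h it had 140 and 117 CPM on soft and 133 CPM on stiff, and only the 12 h libraries stood apart from all others. The log2 fold change at 12 h was -1.16 ± 0.10 (0.448-fold, edgeR adjusted p = 2.7e-07) on soft and -1.09 ± 0.10 (0.470-fold, adjusted p = 5.98e-07) on stiff.

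Tcf7l1, which encodes the repressor TCF3, rose. On soft substrates it went from 507 and 530 CPM at 0 h, and 546 and 468 CPM at 2 h, to 751 and 691 CPM at 12 h. On stiff substrates it went from 458 and 562 CPM at 0 h, and 557 CPM at 2 h, to 699 and 807 CPM at 12 h. The groups of 0 h and 12 h did not overlap, and the log2 fold change was 0.48 ± 0.10 (1.39-fold, edgeR adjusted p = 0.0037) on soft and 0.56 ± 0.10 (1.48-fold, adjusted p = 0.000925) on stiff. Tcf7l2, which encodes TCF4, had 50.05 and 54.4 CPM at 0 h, 63.4 and 49.4 CPM at 2 h, and 91.0 and 77.9 CPM at 12 h on soft substrates. On stiff it had 46.9 and 55.5 CPM at 0 h, 62.2 CPM at 2 h, and 80.2 and 92.3 CPM at 12 h. It too rose without overlap, 1.62-fold on soft (log2 0.70 ± 0.12, edgeR adjusted p = 0.000417) and 1.68-fold on stiff (log2 0.75 ± 0.12, adjusted p = 0.000209).

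**Figure D1:**
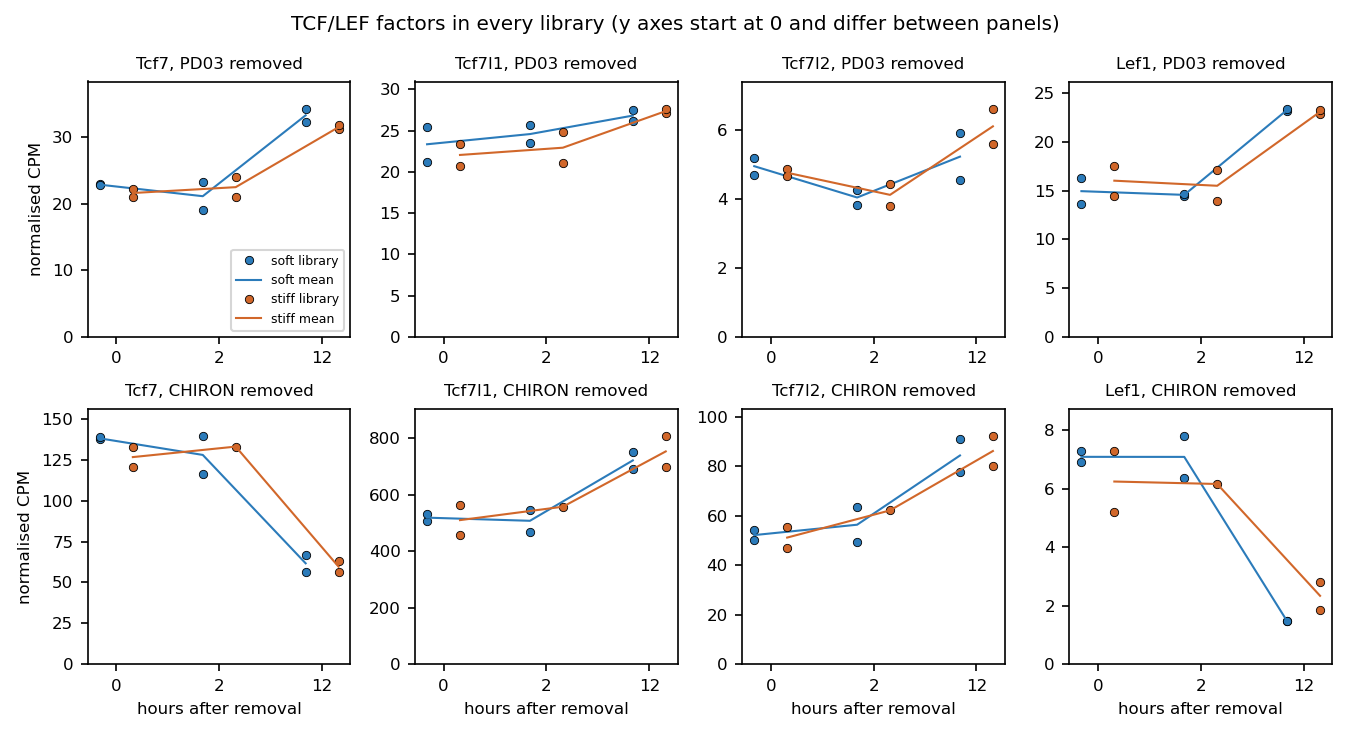
Normalised CPM (y axes from 0, own scale in each panel) of the 4 TCF/LEF genes against hours after removal (times spaced evenly), with 1 point per library, lines through the group means, blue for soft and orange for stiff, PD03 removal above and CHIRON removal below. After CHIRON removal the 12 h libraries of Tcf7 (56.4 to 66.9 CPM) and Lef1 (1.46 to 2.82 CPM) lie below, and those of Tcf7l1 and Tcf7l2 above, those of 0 h, whereas after PD03 removal Tcf7 and Lef1 are higher at 12 h.

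Together these changes shifted the make-up of the family. Among the 4 genes, per kilobase of exon, Tcf7l1 made up 68.7% to 71.2% of the summed level at 0 h of CHIRON removal (4 libraries). It rose to 84.2% to 85.5% at 12 h. The share of Tcf7 went from 25.2% to 27.9% at 0 h down to 9.97% to 11.2% at 12 h. The ranges at 0 h and 12 h did not overlap for either gene. In the table of PD03 removal the shares in cells labelled alike at 0 h were different, between 32.4% and 37.5% for Tcf7l1 and between 49.6% and 52.5% for Tcf7, so these shares hold only within a table. There Tcf7 made up between 53.7% and 57.0% at 12 h, all above 0 h, and Tcf7l1 between 29.1% and 31.4%, all below.

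**Figure D2:**
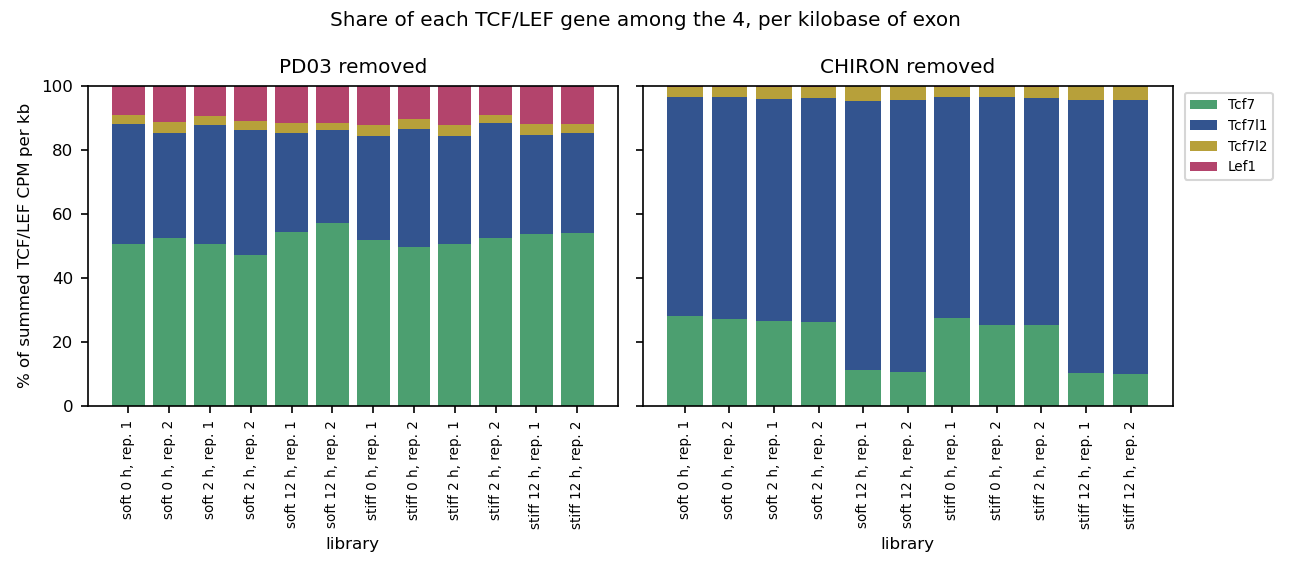
Share of each TCF/LEF gene in the summed CPM per kilobase of the 4 (y axis, %), with 1 bar per library, PD03 removal on the left and CHIRON removal on the right. After CHIRON removal the part of Tcf7l1 is between 84.2% and 85.5% in the 4 libraries at 12 h, against at most 71.2% at 0 h.

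After PD03 removal, Tcf7 and Lef1 instead rose by 12 h on both substrates, and Ctnnb1 and Gsk3b fell slightly. On soft substrates 3 of the 10 genes rose and 2 fell, where 29.4% of 13404 tested genes passed the test (14.1% higher and 15.3% lower). On stiff substrates 3 rose and 2 fell, where 38.4% passed (18.5% higher and 19.9% lower). The median log2 fold change of the 10 genes was 0.10 on each substrate, against -0.0014 on soft and -0.0016 on stiff over all tested genes. For Tcf7 and Lef1 these changes were smaller in size than those after CHIRON removal. Of the changes after PD03 removal, those of Tcf7, Lef1 and Ctnnb1 passed under every alternative run.

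Tcf7 had 22.95 and 22.8 CPM at 0 h on soft substrates, 23.2 and 19.0 CPM at 2 h, and 32.3 and 34.3 CPM at 12 h. On stiff it had 22.2 and 21.1 CPM at 0 h, 20.9 and 24.03 CPM at 2 h, and 31.2 and 31.8 CPM at 12 h. Only at 12 h did all libraries lie above those of 0 h. Over all tested genes 31.7% did so on soft and 34.2% on stiff. The log2 fold change of Tcf7 was 0.54 ± 0.10 (1.46-fold, edgeR adjusted p = 6.83e-05) on soft and 0.55 ± 0.10 (1.46-fold, adjusted p = 5.29e-05) on stiff. Lef1 had 13.6 and 16.3 CPM at 0 h on soft and 23.2 and 23.4 CPM at 12 h. On stiff it had 17.5 and 14.5 CPM at 0 h and 22.9 and 23.3 CPM at 12 h. At 2 h it was between 13.9 and 17.1 CPM, below all 12 h libraries. The log2 fold change at 12 h was 0.64 ± 0.12 (1.56-fold, adjusted p = 0.000105) on soft and 0.54 ± 0.12 (1.45-fold, adjusted p = 0.000557) on stiff.

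Tcf7l1 passed on stiff substrates alone, where it had 20.7 and 23.4 CPM at 0 h and 27.1 and 27.6 CPM at 12 h. Its log2 fold change was 0.30 ± 0.10 (edgeR adjusted p = 0.0217) on stiff and 0.20 ± 0.10 (adjusted p = 0.155) on soft, and the difference between substrates did not pass (below). Without replicate 1 of stiff 0 h, or replicate 1 or 2 of stiff 12 h, it no longer passed, with log2 fold changes of 0.225, 0.32 and 0.29 (adjusted p = 0.169, 0.0749 and 0.095). Tcf7l2 had between 48 and 95 counts a library in this table, and it did not pass on soft (0.08 ± 0.19, adjusted p = 0.804) or stiff (0.37 ± 0.19, adjusted p = 0.133).

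Ctnnb1, the gene of β-catenin itself, changed little in either experiment. After PD03 removal it had 1283 and 1340 CPM at 0 h on soft and 1161 and 1154 CPM at 12 h. On stiff it had 1327 and 1326 CPM at 0 h and 1104 and 1150 CPM at 12 h. All 12 h libraries lay below all of 0 h, as did those of 32.1% of all tested genes on soft and 34.8% on stiff. The log2 fold change was -0.18 ± 0.04 (0.883-fold, edgeR adjusted p = 0.000482) on soft and -0.24 ± 0.04 (0.849-fold, adjusted p = 1.07e-05) on stiff. After CHIRON removal it had 377 and 394 CPM at 0 h and 410 and 423 CPM at 12 h on soft. On stiff it had 395 and 393 CPM at 0 h and 429 and 411 CPM at 12 h. These 12 h libraries lay above those of 0 h on both substrates, but the log2 fold changes of 0.11 ± 0.07 (95% interval -0.04 to 0.27) and 0.09 ± 0.07 (-0.06 to 0.25) did not pass (adjusted p = 0.329 and 0.447).

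The 2 GSK3 genes, whose kinases CHIRON inhibits, moved in opposite directions on soft substrates at 12 h of PD03 removal, though neither call held under every alternative. Gsk3b fell from 129 and 127 CPM at 0 h to 112 and 108 CPM at 12 h on soft, and from 122 and 123 CPM to 104 and 108 CPM on stiff. Its log2 fold change was -0.22 ± 0.06 (edgeR adjusted p = 0.0102) on soft and -0.21 ± 0.06 (adjusted p = 0.00976) on stiff. It no longer passed on soft without replicate 1 of 0 h (-0.20, adjusted p = 0.0684) or replicate 2 of 12 h (-0.18, adjusted p = 0.105), nor on stiff without replicate 2 of 0 h (-0.21, adjusted p = 0.0544) or replicate 1 of 12 h (-0.19, adjusted p = 0.0978). Gsk3a rose on soft, from 72.9 and 78.5 CPM at 0 h to 80.1 and 90.7 CPM at 12 h, which is 0.18 ± 0.06 on the log2 scale (edgeR adjusted p = 0.0338). On stiff its log2 fold change was 0.13 ± 0.06 (adjusted p = 0.0947). The call on soft was lost with DESeq2 (adjusted p = 0.075) and without replicate 1 of 0 h (0.12, adjusted p = 0.271) or replicate 2 of 12 h (0.09, adjusted p = 0.451).

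The scaffold genes and casein kinase 1α passed in neither experiment. After PD03 removal the log2 fold changes at 12 h on soft and stiff were -0.09 ± 0.06 and -0.10 ± 0.06 for Apc, a large scaffold mutated in colon cancer, 0.13 ± 0.06 and 0.07 ± 0.06 for Axin1, the scaffold that limits assembly of the complex, and -0.02 ± 0.04 and -0.0033 ± 0.04 for Csnk1a1, the priming kinase. After CHIRON removal the log2 fold changes of Apc, Axin1, Csnk1a1, Gsk3a and Gsk3b were between -0.09 and 0.09 on both substrates. The widest 95% interval among these 5 was that of Apc on stiff, from -0.33 to 0.16, and the narrowest that of Csnk1a1 on soft, from -0.12 to 0.19. The levels of Apc at 0 h were 311 and 375 CPM on soft and 332 and 417 CPM on stiff.

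**Figure D3:**
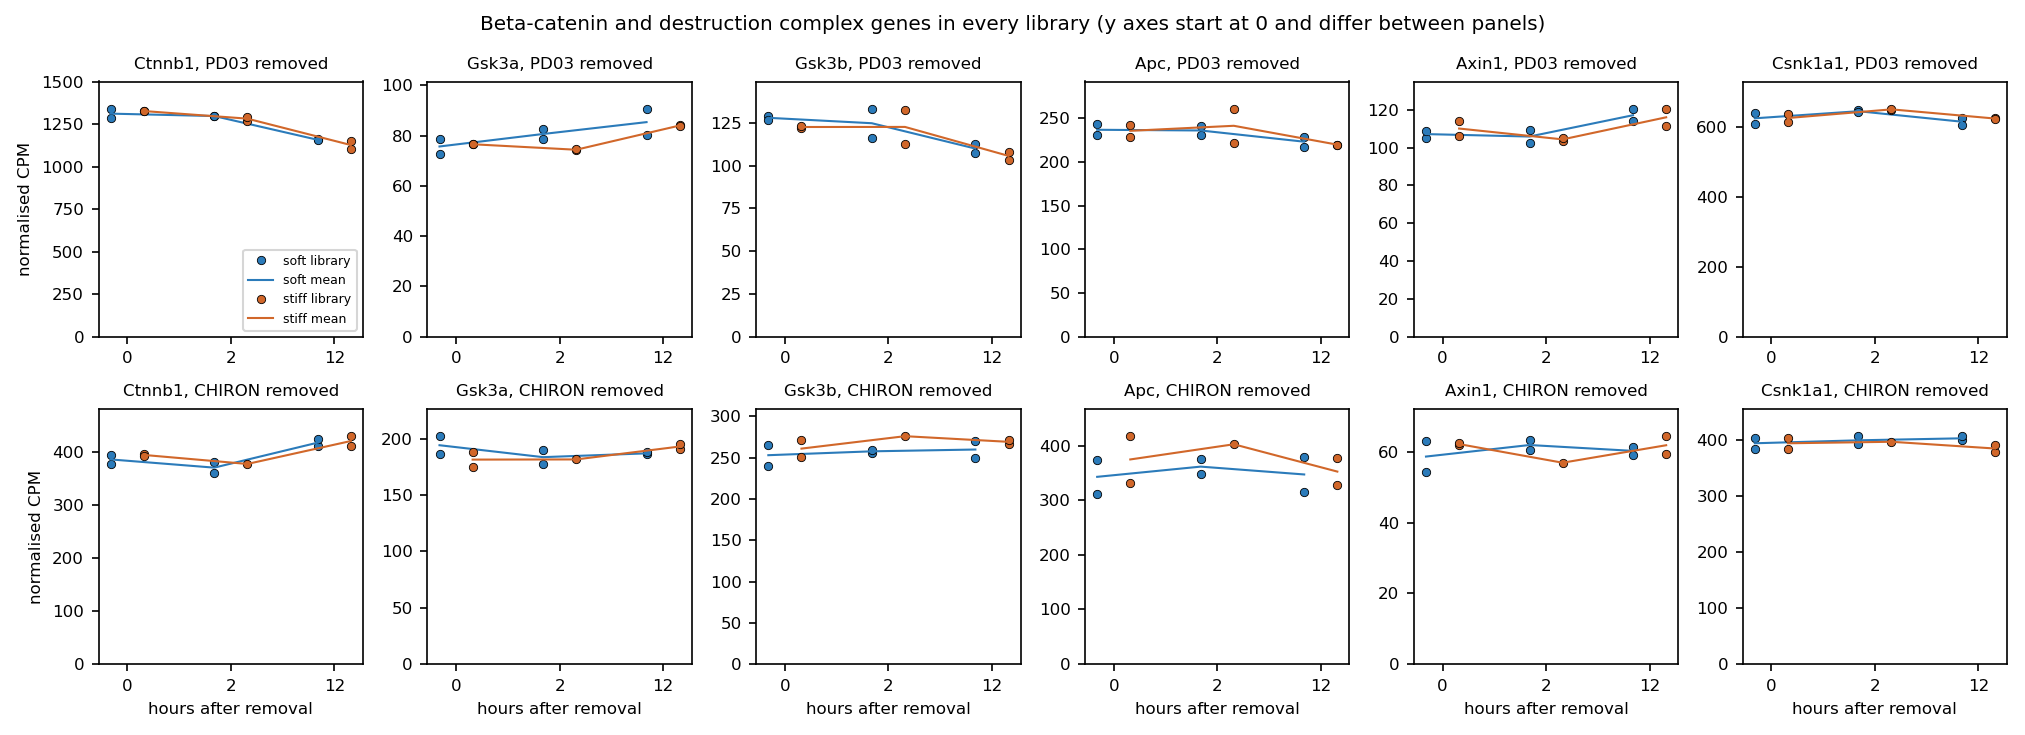
Normalised CPM (y axes from 0, own scale in each panel) of Ctnnb1 and the 5 destruction complex genes against hours after removal (times spaced evenly), with 1 point per library, lines through the group means, blue for soft and orange for stiff, PD03 removal above and CHIRON removal below. Ctnnb1 is lower at 12 h of PD03 removal (1104 to 1161 CPM, against 1283 to 1340 CPM at 0 h), as is Gsk3b (104 to 112 CPM, against 122 to 129 CPM at 0 h).

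**Figure D4:**
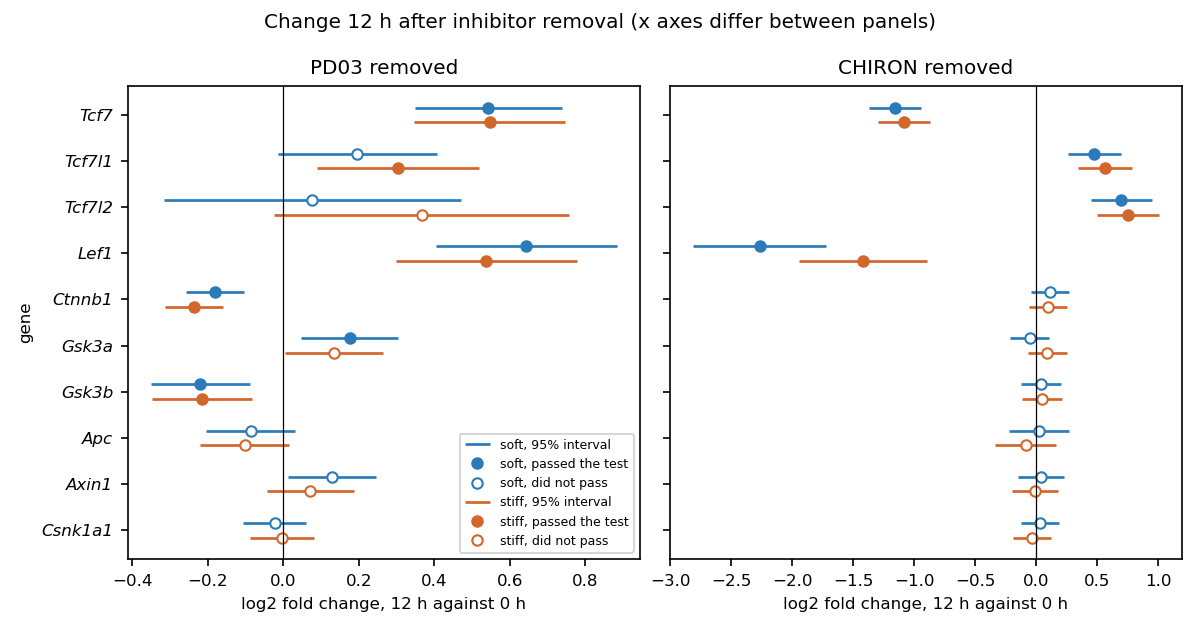
Log2 fold change at 12 h against 0 h (x axes, scaled separately) with its 95% interval for each of the 10 genes, on soft (blue) and stiff (orange) substrates, PD03 removal on the left and CHIRON removal on the right. Filled points passed the test. Tcf7 and Lef1 lie to the right of 0 after PD03 removal (0.54 to 0.64) and to the left after CHIRON removal (-1.09 to -2.27).

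At 2 h none of the 10 genes passed in any of the 4 comparisons, by edgeR or by DESeq2, and none had an unadjusted p under 0.05. At that time 1.96% of the tested genes passed on soft (1.31% higher and 0.649% lower) and 2.73% on stiff (1.84% and 0.895%) after PD03 removal, against 0.226% on soft and 0.103% on stiff (0.0547% and 0.0479%) after CHIRON removal. The largest log2 fold change among the 10 was -0.29 ± 0.21 after PD03 removal and 0.28 ± 0.15 after CHIRON removal, both of Tcf7l2. Axin2, the feedback scaffold that is the standard Wnt readout, had already fallen on soft substrates at 2 h of CHIRON removal, from between 187 and 194 CPM at 0 h to between 124 and 134 CPM (log2 fold change -0.56 ± 0.08, edgeR adjusted p = 0.00224). On stiff it had between 171 and 188 CPM at 0 h and 122 CPM in the 1 library at 2 h. That comparison called 15 genes in all, and 4 with a replicate block, 0 with only the groups compared and 0 with the discarded library. Axin2 also fell at 2 h of PD03 removal, by log2 fold changes of -0.22 ± 0.06 and -0.30 ± 0.06 (adjusted p = 0.0301 and 0.00135).

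The changes from 0 h differed between the 2 removals for Tcf7, Lef1 and Ctnnb1 on both substrates at 12 h. This was tested in a joint model of the 23 libraries as the response to PD03 removal minus that to CHIRON removal, where 21% of 14758 tested genes passed on soft and 23.5% on stiff. That model took the spread of a gene as the same in both removals. In separate fits the biological coefficient of variation was 3.86% for PD03 removal and 7.97% for CHIRON removal. For Tcf7 the difference in log2 fold change was 1.70 ± 0.14 on soft and 1.64 ± 0.14 on stiff (edgeR adjusted p = 8.71e-10 and 1.94e-09). For Lef1 it was 2.91 ± 0.27 and 1.96 ± 0.26 (adjusted p = 5.85e-09 and 2.59e-06), and for Ctnnb1 -0.30 ± 0.08 and -0.33 ± 0.08 (adjusted p = 0.00642 and 0.00244). Tcf7l1, with positive log2 fold changes at 12 h in both experiments, gave -0.28 ± 0.15 and -0.26 ± 0.15, with 95% intervals from -0.60 to 0.03 and from -0.57 to 0.06, and did not pass (adjusted p = 0.205 and 0.249). Tcf7l2 did not pass either (-0.62 ± 0.23 and -0.38 ± 0.23, adjusted p = 0.0565 and 0.253). At 2 h none of the 10 passed, with none at an unadjusted p under 0.05 and none by DESeq2, where 0.813% and 0.779% of genes passed. The number on soft rose from 3 to 5 without replicate 1 of soft 12 h of PD03 removal, when Tcf7l2 and Gsk3a passed, and without replicate 2 of soft 12 h of CHIRON removal, when Tcf7l2 and Gsk3b passed. With the discarded library Ctnnb1 no longer passed (adjusted p = 0.965 and 0.945).

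Substrate stiffness made no detected difference to these 10 genes. None passed between soft and stiff at 0 h, 2 h or 12 h in either experiment by edgeR or DESeq2. Among all tested genes 0.0298% (0.0149% in each direction), 0.134% and 0.776% passed after PD03 removal, and 0% at each time of CHIRON removal, where 508, 838 and 471 genes had an unadjusted p under 0.05 and DESeq2 called 0 at each time. Of the 60 values, only Lef1 at 12 h of CHIRON removal had an unadjusted p under 0.05. It was 0.630-fold on soft relative to stiff, a log2 difference of -0.67 ± 0.30 with a 95% interval from -1.29 to -0.04 (unadjusted p = 0.038, adjusted p = 0.999), and rests on the 23 to 53 counts given above. For Ctnnb1 the intervals were from -0.09 to 0.06, -0.06 to 0.09 and -0.04 to 0.12 at 0 h, 2 h and 12 h of PD03 removal, and the widest interval in that experiment was that of Tcf7l2 at 2 h, from -0.47 to 0.41.

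No difference between substrates in the response to removal was detected either. Tested as the change on soft minus the change on stiff, none passed at 2 h or 12 h in either experiment by edgeR or DESeq2, and among all tested genes 0.00746% passed at 2 h and 0% at 12 h of PD03 removal, and 0% at both times of CHIRON removal (899, 452 and 415 genes with an unadjusted p under 0.05 in these last 3, and 0 by DESeq2). Lef1 at 12 h of CHIRON removal was again the one gene under an unadjusted p of 0.05, with a soft minus stiff difference of -0.85 ± 0.37 on the log2 scale (adjusted p = 1 by edgeR). For Tcf7 the same difference was -0.0039 ± 0.14 at 12 h of PD03 removal (95% interval -0.28 to 0.27) and -0.07 ± 0.14 at 12 h of CHIRON removal (-0.37 to 0.23).

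**Figure D5:**
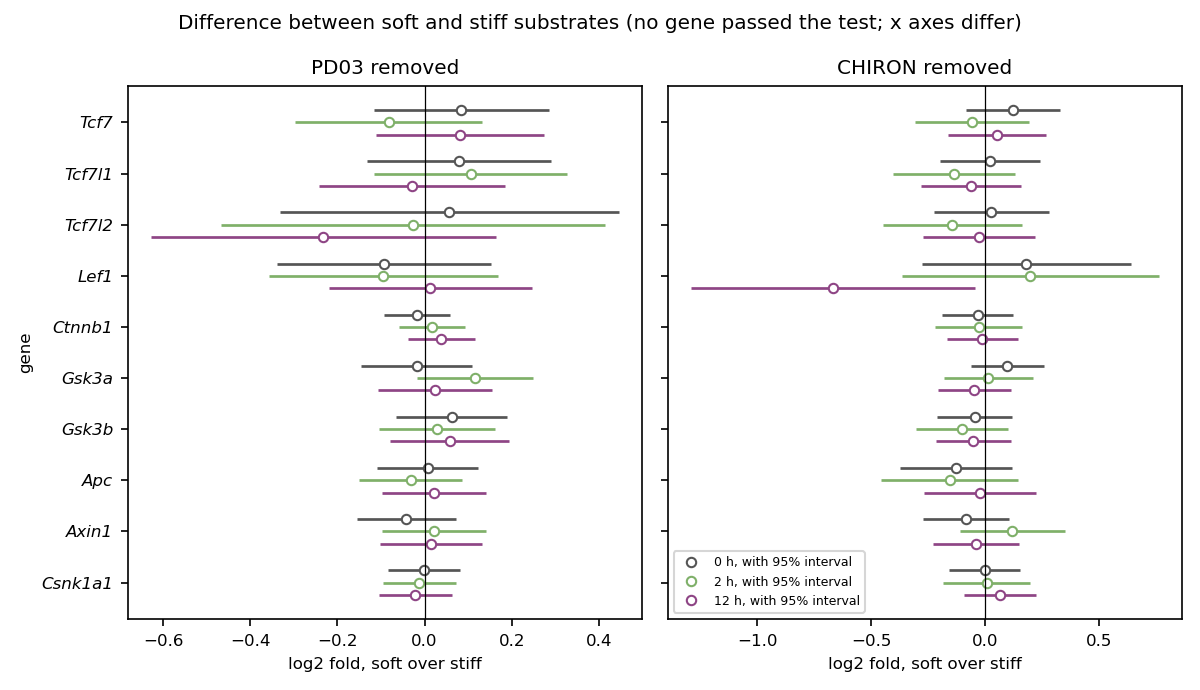
Log2 fold of soft over stiff (x axes, scaled separately) with its 95% interval for each of the 10 genes at 0 h (grey), 2 h (green) and 12 h (purple), PD03 removal on the left and CHIRON removal on the right. No point passed the test, and only the interval of Lef1 at 12 h of CHIRON removal (-1.29 to -0.04) does not reach 0.

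Other genes of the pathway were counted in 5 lists, which were also chosen with earlier results of these data known. The shares of all tested genes that passed, against which their counts are read, were 29.4% on soft and 38.4% on stiff at 12 h of PD03 removal and 17.8% and 16.8% at 12 h of CHIRON removal. Of 17 Wnt target and feedback genes, 1 rose and 11 fell on soft and 1 rose and 10 fell on stiff at 12 h of CHIRON removal, with median log2 fold changes of -1.32 and -1.53. Axin2 went from between 171 and 194 CPM at 0 h to between 28.4 and 31.6 CPM at 12 h, which is -2.65 ± 0.09 (soft) and -2.58 ± 0.09 (stiff) on the log2 scale (edgeR adjusted p = 1.15e-12 and 1.28e-12). Sp5, a Wnt-induced transcription factor, fell from between 128 and 169 CPM to between 2.13 and 2.57 CPM (-6.09 ± 0.13 and -5.80 ± 0.13). Cdx1, a homeobox gene of the posterior embryo, fell from between 154 and 170 CPM to between 7.95 and 13.7 CPM (-3.94 ± 0.13 and -4.20 ± 0.14). Cdx2 and T (Brachyury, a gene of the primitive streak) fell to between 0 and 4 and between 2 and 7 counts a library, from between 71 and 133 and between 139 and 207 counts, too few for a fold to be given.

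At 12 h of PD03 removal the same list had 7 genes higher and 2 lower of 16 tested on soft (median log2 fold change 0.15) and 6 higher and 3 lower on stiff (0.19), with Lgr5 below the count filter. Myc, a growth regulator, rose on the log2 scale by 1.40 ± 0.16 (soft) and 1.67 ± 0.15 (stiff), T by 1.38 ± 0.12 and 1.57 ± 0.11, and Cdx1 by 0.60 ± 0.06 and 0.59 ± 0.06 (edgeR adjusted p of 8.39e-08 or less). Apcdd1, a Wnt antagonist of the membrane, fell (-0.51 ± 0.08 and -0.42 ± 0.09). Axin2 rose slightly, from between 122.5 and 139 CPM to between 146 and 160 CPM (0.20 ± 0.05 and 0.24 ± 0.06, adjusted p = 0.0055 and 0.000895). Between soft and stiff, 1 gene of this list passed at 12 h of PD03 removal, Myc, which is named after its value was seen and was lower on soft (soft minus stiff -0.59 ± 0.13 on the log2 scale, adjusted p = 0.0213).

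Of 23 other genes of the destruction complex and of β-catenin turnover, 6 rose and 4 fell on soft and 8 rose and 5 fell on stiff at 12 h of PD03 removal, with medians of 0.04 and -0.01. Over all genes 14.1% rose and 15.3% fell on soft and 18.5% and 19.9% on stiff. Dvl3 and Dvl1, Dishevelled proteins that relay the Wnt signal, rose by 0.32 ± 0.11 and 0.27 ± 0.08 on soft and 0.79 ± 0.12 and 0.43 ± 0.08 on stiff. Ppp2r5a, a phosphatase subunit, rose by 0.57 ± 0.06 and 0.75 ± 0.06, and Btrc, the ubiquitin ligase subunit that binds phosphorylated β-catenin, fell (-0.28 ± 0.08 and -0.47 ± 0.08). At 12 h of CHIRON removal 2 rose and 1 fell on soft and 3 rose and 2 fell on stiff, with medians of 0.07 and 0.04, near the shares over all genes (17.8% and 16.8% called). The 3 that passed on both were Axin2, Ppp2r5b (0.41 ± 0.12 and 0.47 ± 0.12) and Ppp2r5c (0.25 ± 0.08 and 0.23 ± 0.08).

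Of 20 nuclear partners, the proteins that TCF/LEF factors and β-catenin recruit, 8 rose and 1 fell on soft and 10 rose and 1 fell on stiff at 12 h of PD03 removal (medians 0.09 and 0.18). Over all genes 14.1% were higher and 15.3% lower on soft and 18.5% and 19.9% on stiff. The partners that rose included the β-catenin coactivators Bcl9l (0.52 ± 0.11 and 0.62 ± 0.11) and Bcl9 (0.48 ± 0.13 and 0.36 ± 0.13), and the acetyltransferase gene Ep300 (0.33 ± 0.06 and 0.33 ± 0.065). Tle2, a Groucho corepressor, also rose (1.14 ± 0.43 and 1.33 ± 0.43, edgeR adjusted p = 0.0459 and 0.014), but on few counts. It had between 13 and 15 counts a library at 0 h and between 21 and 31 at 12 h. At 12 h of CHIRON removal 4 rose and 1 fell on soft and 5 rose and 1 fell on stiff (medians 0.12 and 0.13), against 17.8% and 16.8% of all genes called. Among the partners, Tle4 (0.27 ± 0.09 and 0.31 ± 0.09) and Aes (0.30 ± 0.09 and 0.31 ± 0.09), both of the Groucho family, passed on both. Of the 6 tested junction partners, which hold β-catenin at the membrane, Cdh1 (-0.14 ± 0.04 and -0.24 ± 0.04) and Ctnna1 (-0.16 ± 0.04 and -0.20 ± 0.04), the genes of E-cadherin and α-catenin, fell on both substrates after PD03 removal, and Cdh3 rose on both after CHIRON removal (0.85 ± 0.20 and 1.13 ± 0.21). In this list 0 rose and 2 fell on soft and 1 rose and 2 fell on stiff after PD03 removal (medians 0.10 and 0.08), and 1 rose on each after CHIRON removal (medians 0.06 and 0.0013). These counts are at or near the shares over all genes (29.4%, 38.4%, 17.8% and 16.8%). Ctnna2 was below the count filter.

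Among 12 pluripotency genes known to be bound by Tcf7l1, 4 rose and 4 fell at 12 h of CHIRON removal on each substrate, with medians of 0.08 on soft and 0.13 on stiff. Nanog, a core pluripotency factor, went from between 509 and 597 CPM to between 845 and 972 CPM (0.63 ± 0.09 and 0.76 ± 0.09), and Sox2 rose as well (0.37 ± 0.09 and 0.42 ± 0.09). Tfcp2l1 (-0.66 ± 0.08 and -0.65 ± 0.08) and Nr0b1 (-0.45 ± 0.07 and -0.49 ± 0.08), which act in naive pluripotency, fell. After PD03 removal 2 rose and 6 fell on soft and 3 rose and 6 fell on stiff (medians -0.12 and -0.10). There Nanog fell (-0.38 ± 0.04 and -0.55 ± 0.04), as did Prdm14 (-0.49 ± 0.07 and -0.61 ± 0.07) and Tfcp2l1 (-0.35 ± 0.04 and -0.52 ± 0.04), while Nr0b1 rose (0.33 ± 0.05 and 0.59 ± 0.05). Between soft and stiff 1 of the 12 passed at 12 h of PD03 removal, Tfcp2l1, which is named after its value was seen and was higher on soft by 0.22 ± 0.04 (adjusted p = 0.00356).

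The genes whose log2 CPM over libraries most resembled that of a factor, by the mean of the Pearson r in the 12 libraries of PD03 removal and in the 11 of CHIRON removal, were sought among 13175 genes. These libraries share times and substrates, and r describes them only. For Tcf7 they were Mcc (0.941 and 0.983), Cachd1 (0.960 and 0.959) and T (0.933 and 0.975), and for Lef1 they were Fblim1 (0.931 and 0.976), Ntn1 (0.935 and 0.951) and Lin28a (0.929 and 0.948). For Tcf7l1 they were Wipf2 (0.891 and 0.962), Rest (0.923 and 0.927) and Ldoc1 (0.882 and 0.929), and for Tcf7l2 Max (0.844 and 0.943), Ube2c (0.861 and 0.920) and Dnajb5 (0.815 and 0.962). For Ctnnb1 they were Wdr5 (0.985 and 0.925), Hdac2 (0.943 and 0.938) and Calu (0.961 and 0.912). Among the factors themselves Tcf7 and Lef1 had an r of 0.87 after PD03 removal and 0.96 after CHIRON removal, whereas Tcf7 and Tcf7l1 had an r of 0.747 and -0.852.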

How the data were processed

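Per the labels and the study's methods, RNA was depleted of ribosomal RNA, reads were trimmed with Trim Galore, aligned to GRCm38 (mm10) with TopHat2 2.1.0 and counted per gene with featureCounts 1.5.0 on Ensembl release 86, and the authors deposited raw counts. The table of PD03 removal also held 23 empty lines, 15 names turned into digits and 12 columns of samples outside this series, which were not used. Symbols were matched to GENCODE M21 (34799 and 48349 genes), and the 19285 and 21695 protein-coding ones were kept. Genes were filtered with filterByExpr (minimum count 10, total 15), normalised by TMM and fitted with edgeR 4.0.16 (glmQLFit, glmQLFTest, R 4.3.3) over the 6 groups of a removal, and over all 23 libraries for the difference between removals. P-values were adjusted over all tested genes (Benjamini-Hochberg) and called under 0.05. An SE is the absolute log2 fold change divided by the square root of F. CPM of single genes are TMM-normalised over the filtered protein-coding genes, and their log2 CPM used a prior count of 2. Marker sums and the 0 h levels compared between tables were scaled to the total counts of a library, without TMM. The log2 CPM between tables used a pseudocount of 0.5.

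The biological coefficient of variation was 3.86% for PD03 removal and 7.97% for CHIRON removal, so smaller changes were detectable in the first. The chi-square per degree of freedom between the 2 replicates of a group lay between 2.19 and 18.1 in the 11 groups that have both, above the level of sampling noise. Scripts were tested on simulated data, for soft at 12 h against 0 h. Of simulated 1.3-fold and 1.5-fold changes, 56% and 68% were called for PD03 removal and 6% and 48% for CHIRON removal. Of the calls, 6.37% and 2.75% were false. A gene that did not pass after CHIRON removal can therefore have changed by such amounts, unless its interval excludes them. For Ctnnb1, Gsk3a, Gsk3b, Apc, Axin1 and Csnk1a1 the intervals at 12 h of CHIRON removal excluded a 1.3-fold change in either direction on both substrates. They reached at most from -0.33 (Apc on stiff) to 0.27 (Ctnnb1 on soft) on the log2 scale. Replicate numbers were not taken as a pairing of the samples. The alternatives were DESeq2 1.42.0, its size factors in edgeR, no count filter, all genes, only the groups compared, a replicate block, leaving out each library, and adding the discarded one. From the other lists, up to 4 genes that passed on both substrates at 12 h, with the largest change on stiff, were named, and Axin2 always. The 10 genes and all lists were chosen with earlier results of these data known. Figures used matplotlib 3.10.9.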

Additional observations from a re-analysis of the deposited data

Results flagged for a closer look

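The response at 12 h differed between the 2 removals for 3 of the 10 genes, by the test of the difference itself in the joint edgeR model of 23 libraries. The number is to be read beside the 21% of 14758 tested genes that passed the same test on soft and the 23.5% on stiff. As PD03 removal minus CHIRON removal on the log2 scale, the difference for Lef1 was 2.91 on soft and 1.96 on stiff substrates, for Tcf7 1.70 and 1.64, and for Ctnnb1 -0.30 and -0.33. For Lef1 and Tcf7 the 2 changes had opposite signs on both substrates. For Ctnnb1 the change after CHIRON removal did not itself pass.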

How the results depend on the processing

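Of the 24 changes that passed, 11 passed under every alternative run, 13 were lost under at least 1, and none reversed. Of the 22 numbers of genes that passed, 17 stayed within 1.5 times. With the discarded library the number at 12 h of CHIRON removal went from 4 to 1 on soft and from 4 to 0 on stiff, with 2455 genes called on stiff before and 461 after. Leaving out 1 library at a time gave between 3 and 5 on soft and between 3 and 4 on stiff at 12 h of PD03 removal, each from 5, and, for the difference between removals, between 3 and 5 on soft and between 3 and 4 on stiff, each from 3. The lowest values came without replicate 2 of soft 12 h and replicate 1 of stiff 12 h of PD03 removal, when Tcf7, Lef1 and Ctnnb1 passed. With a replicate block the numbers were 5 and 5 at 12 h of PD03 removal and 4 and 4 at 12 h of CHIRON removal, and no number of genes changed. The replicate numbers were not taken as a pairing, since same-numbered libraries deviated together with a mean r of -0.0025 over 15 pairs of groups and -0.020 over 10. The stiff 2 h group of CHIRON removal is 1 library, so leaving it out gives no value. Lef1 after CHIRON removal has the fewest counts of the 10 genes.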
